A study of Mus musculus with 17 samples.

Results

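The nucleolar ribosome biogenesis genes are 48 genes, chosen by name, whose products transcribe, cut, modify and assemble ribosomal RNA (rRNA) in the nucleolus. They were chosen with earlier results of these data known, so shares of members set beside all rows are descriptions. Of these, 47 had at least 1 probe set of their own on the array and together held 50 of the 28815 rows of the deposited table, or 50 of the 21780 rows that carry exactly 1 gene symbol. Ddx18, Fbl and Wdr12 had 2 rows each, and the row of a gene with the higher mean over all embryos is called its lead row. Noc2l, a large subunit assembly factor, had no row of its own and is not described further by level. A further 3 rows shared between Npm1 and the gene model Gm15484 were not used.

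The study asked whether altered poly(ADP-ribose) metabolism of the father, which changes the packaging of sperm DNA, goes along with altered gene expression in his embryos. Wild-type males of the inbred strain 129SVE were injected every day for 6 weeks with PJ34, an inhibitor of PARP1 and PARP2, which make poly(ADP-ribose), or with saline, and then mated naturally with untreated wild-type females. The control group held 7 single 2-cell embryos from 3 saline-injected sires, 1 from sire A, 3 from sire B and 3 from sire D, and the PJ34 group held 10 from 3 sires, 4 from MTM11, 4 from MTM13 and 2 from MTM14. Each array carried the amplified RNA of 1 embryo, values are log2 intensities, and embryos are named by sire and number. One label field names the control fathers untreated, whereas another field and the protocol speak of saline, which is followed here. No embryo was treated itself, and embryos of 1 sire share a father, so the p-values below measure the spread between embryos and not between 3 independent sires a group.

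A nucleolus forms around the rRNA genes. RNA polymerase I makes a long precursor there, small nucleolar particles guide its methylation (box C/D) and pseudouridylation (H/ACA), and assembly factors bring ribosomal proteins onto the folding RNA until the small and the large subunit leave for the cytoplasm. In the mouse, rRNA synthesis is off at the end of oocyte growth and resumes in the 2-cell embryo with the major wave of genome activation, when the compact nucleolus precursor bodies turn into working nucleoli. The transcripts measured at this stage are a mixture of those left by the oocyte and those made by the embryo, and the arrays cannot tell these sources apart. Likewise, fewer cells with a transcript and less of it per cell cannot be told apart in the RNA of a whole embryo.

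No member passed the adjusted test between groups. Of the 50 rows, 35 had a lower mean in embryos of PJ34-treated than of saline-injected sires (70%, beside 56.4% of all rows). At an unadjusted p under 0.05, 9 of these were lower (18%, background 3.93%) and 0 rows were higher (background 1.96%). Those 9 belong to Utp20, Heatr1, Pwp2 and Wdr43 of the small subunit processome, Ltv1 of late small subunit maturation, Noc3l of large subunit assembly, Nop56 of the box C/D particle, and the nucleolar proteins Gnl3 and Mybbp1a. Their mean differences ranged from -0.86 to -0.14 on the log2 scale. Of the well-known nucleolar genes, Nop56 (-0.59) and the lead row of Fbl (-0.32) had the larger differences. The second row of Fbl differed by 0.04, and Npm1, Ncl and Nop58 differed by 0.10 or less. Leaving out single embryos moved the difference of 35 of the 47 genes by over 1.5 times or turned its sign. It did neither for the 9 above, Fbl (lead row), Nop58 and Rrs1. The 9 were picked by their small p in these same embryos, which favours such steadiness, so this adds no evidence for them.

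The markers of the stage were checked on the same arrays. Of 20 genome activation genes listed, 13 had a row, 16 rows in all. Their mean ranged from 8.78 to 9.21 in control and from 8.34 to 9.12 in PJ34 embryos. The mean over the 16 rows of 15 oocyte-derived genes ranged from 9.39 to 9.73 and from 9.19 to 9.63. All of these lie above the median of all rows, 6.17. The means of 12 cumulus cell genes (5.31 to 5.52 over all embryos) and of 9 sperm genes (5.50 to 5.80) lie below that median in every embryo, and that of 11 oviduct and blood genes, of 12 listed, reached from 5.93 to 6.30, with MTM11-4, MTM13-4 and MTM14-1 just above it. Array medians were 6.12 to 6.23. Genome activation markers were lowest in MTM13-4 (8.34), MTM14-1 (8.56), MTM11-3 (8.60) and MTM14-2 (8.63), below all control embryos; their part in the member values was not tested.

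Promoter sequence is shown first, for those members among the 9 whose start region holds an E-box or an ETS site, short motifs described next. RefSeq promoter windows of build GRCm38.p6, each of 300 bases with 250 before and 50 from the start of the transcript onward, were at hand for 43 of the 48 members, not for Fbl, Rrp12, Rrs1, Npm1 and Bop1. The E-box CACGTG, which the Myc family and the USF factors bind, was found in either orientation in 11 of the 43 (25.6%). It was in 8.09% of all 27025 genes with such a promoter and in 8.91% of the 17491 protein-coding ones. A gene was counted if any of its windows matched. The ETS site CCGGAAG, searched on both strands, was found in 17 (39.5%), against 9.93% and 12.9%. Both shares are descriptions of these windows, and a match is not a binding site.

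Among the 9 members lower at an unadjusted p under 0.05, the E-box was in the promoters of 4 and the ETS site in those of 4, Ltv1 having both, while neither was in those of Nop56 and Gnl3. Among the other 33 members with a promoter and a row, the E-box was in 7 and the ETS site in 12. Of the motifs described further below, the GC box was in 8 of the 9 and 24 of the 33, and the E-box variant CACGCG in 1 and 10. None of these splits was tested. The windows of the 7 genes with an E-box or ETS match are printed below from 5′ to 3′ on the strand of the gene, with the matches in capitals. Position 1 is the first base of the table's transcript.
Utp20, chr10:88826765-88826864, minus strand, E-box at position 38: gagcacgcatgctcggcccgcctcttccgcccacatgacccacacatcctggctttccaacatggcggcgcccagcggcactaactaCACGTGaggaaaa
Heatr1, chr13:12395312-12395411, plus strand, ETS site at position -16: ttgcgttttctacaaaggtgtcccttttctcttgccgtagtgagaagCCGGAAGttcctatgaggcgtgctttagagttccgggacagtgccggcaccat
Noc3l, chr19:38819188-38819287, minus strand, ETS site in reverse at position 26: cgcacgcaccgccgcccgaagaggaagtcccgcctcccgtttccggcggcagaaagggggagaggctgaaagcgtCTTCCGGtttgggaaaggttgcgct
Ltv1, chr10:13193094-13193245, minus strand, ETS sites at positions -98 and, in reverse, -55, E-box at 29: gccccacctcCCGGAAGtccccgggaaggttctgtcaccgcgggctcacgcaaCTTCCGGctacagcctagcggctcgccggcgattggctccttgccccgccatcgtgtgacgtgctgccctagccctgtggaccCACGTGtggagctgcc
Mybbp1a, chr11:72441277-72441376, plus strand, E-box at position 41: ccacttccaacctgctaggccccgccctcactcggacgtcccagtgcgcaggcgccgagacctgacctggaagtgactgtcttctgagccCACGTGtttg
Pwp2, chr10:78185100-78185199, minus strand, ETS sites at positions -21 and 20: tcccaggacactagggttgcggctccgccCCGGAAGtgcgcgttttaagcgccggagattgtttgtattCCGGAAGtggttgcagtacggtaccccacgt
Wdr43, chr17:71616165-71616264, plus strand, E-box at position 18: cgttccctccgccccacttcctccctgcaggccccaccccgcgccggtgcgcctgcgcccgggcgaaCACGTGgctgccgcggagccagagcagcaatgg
In 4 of these 7 windows the E-box lies just downstream of the start, at positions 18 to 41. For Noc3l, Pwp2 and Wdr43, and for Nop56, which had no match, the start in the table lies inside the annotated gene, so other starts of these genes were not searched.

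Of the 11 motifs searched, all on both strands, the GC box GGGCGG was the most frequent in the members, in 33 of 43 (76.7%, against 38.2% of all and 49.2% of coding genes). The TATA box TATAAA was in 1 (2.33%, against 15.7% and 14.8%), the CCAAT box in 16 (37.2%, against 41.1% and 42.3%), and the E-box variant CACGCG in 12 (27.9%, against 10.5% and 13.7%). The cyclic AMP response element TGACGTCA was in 1 (2.33%, against 2.03% and 2.54%) and its short form TGACG, which the longer element contains, in 19 (44.2%, against 23% and 26.2%). The 8-letter core GCATGCGC of NRF1 was in 2 (4.65%, against 3.05% and 3.93%), the core AAGATGGCG of YY1 in 1 (2.33%, against 1.64% and 2.14%), and the core ACTACAATT of ZNF143 in 0 (against 0.448% and 0.577%).

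**Figure D1:**
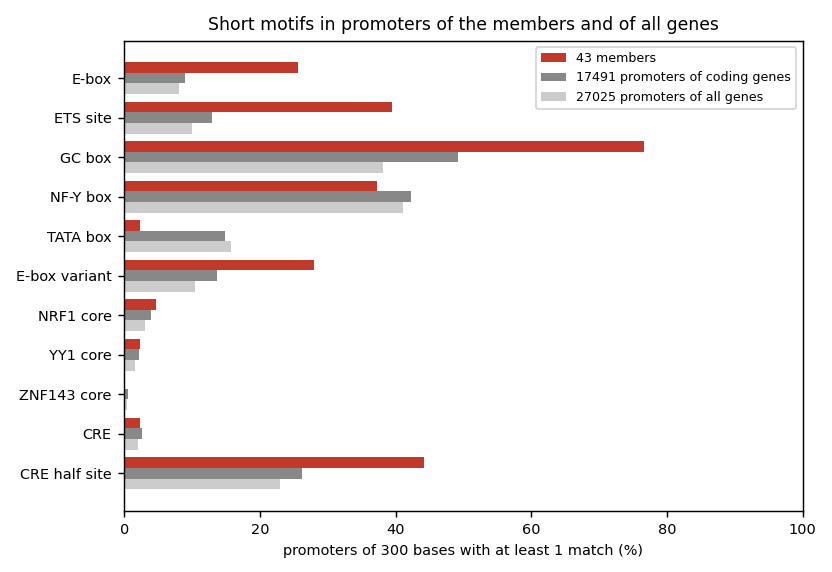
Share of genes with at least 1 match to each of 11 short motifs in a RefSeq promoter of 300 bases (percent, either strand). Bars are for 43 members (red), coding genes (dark grey) and all genes (light grey). Counts that the drawing calls promoters are counts of genes. The bar named NF-Y box is the CCAAT box. The members' bars for the E-box (25.6%), the ETS site (39.5%) and the GC box (76.7%) are longer than both grey bars, and that for the TATA box (2.33%) is shorter.

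For the comparison of PJ34 with control embryos, limma was fitted to all rows with 1 symbol and adjusted over all of them. At an adjusted p under 0.1, the threshold of the study, 0 of 50 member rows were called, and 0 of all rows were called either (background 0%). The lowest adjusted p of a member was 0.80. At an unadjusted p under 0.05, 9 member rows (18%) were lower, where 3.93% of all rows were lower, and 0 were higher, where 1.96% of all rows were. An unmoderated analysis of variance, which the study used, gave 0 adjusted calls, 9 lower rows and 0 higher rows as well.

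Of the 50 rows, 70% had a negative difference, beside 56.4% of all rows, and the median difference was -0.11, beside -0.02 over all rows. The values of the groups overlapped in every member row, while 0.0138% of all rows did not overlap. All 50 rows had a mean at or above the median level of all rows. With the sires as units (the mean of each sire, 3 against 3), 5 member rows were lower at an unadjusted p under 0.05. Over all rows, 2.9% were lower at this threshold in that fit, beside 3.93% with embryos as units. Without the 3 embryos of sire B, 5 member rows were lower and 1 was higher at the same threshold. The count of lower member rows was 9 without sire A.

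**Figure D2:**
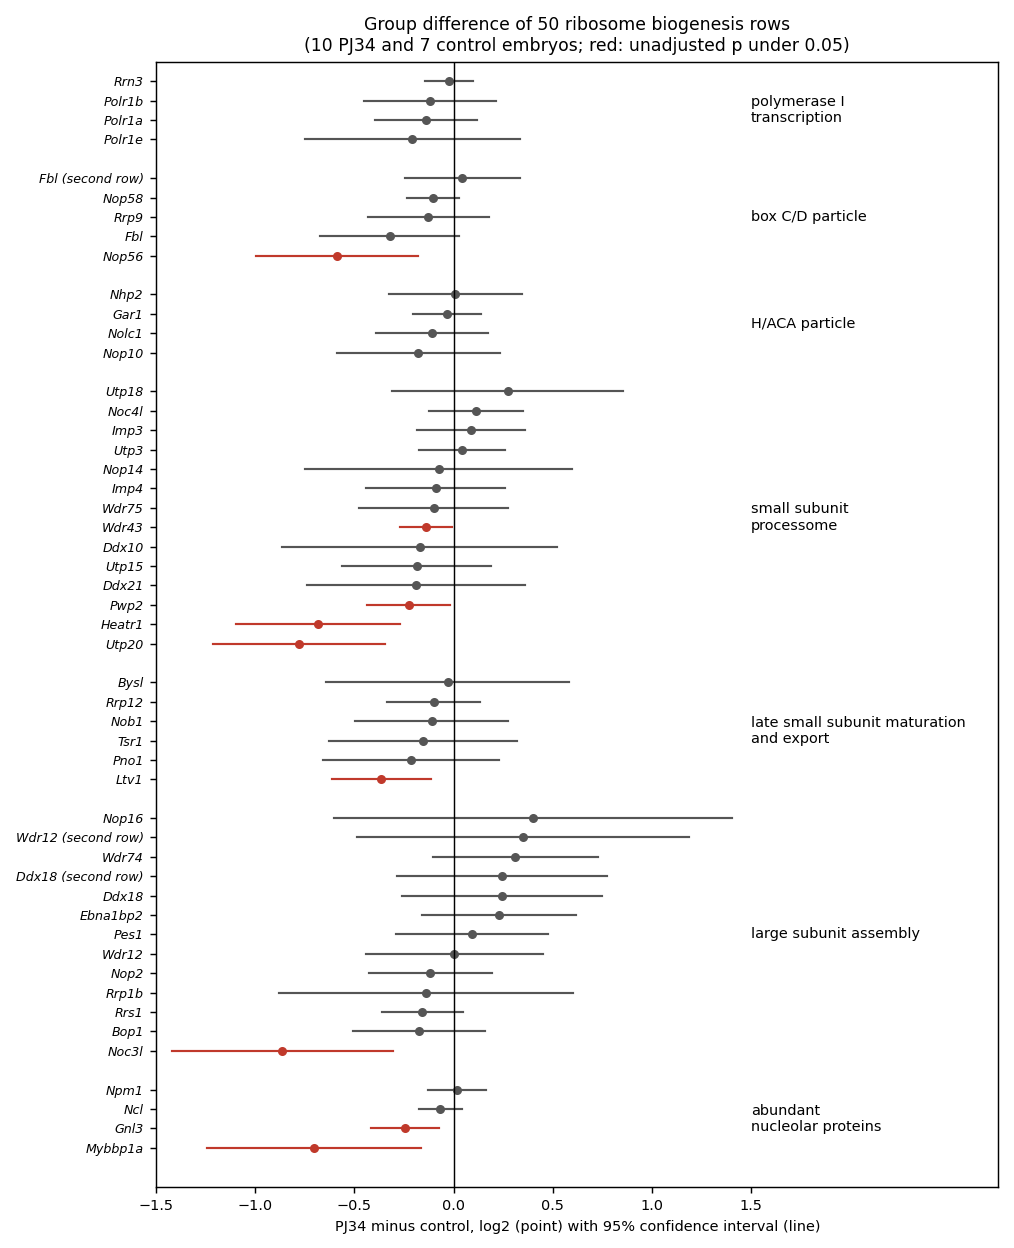
Mean of 10 PJ34 embryos minus mean of 7 control embryos for each of the 50 rows (points, log2) with the 95% confidence interval from limma (lines), sorted within 7 role groups; red marks an unadjusted p under 0.05. All 9 red points lie left of 0, and no interval lies wholly right of 0.

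Transcription by RNA polymerase I was represented by 4 genes, all with a negative difference and none at an unadjusted p under 0.05. Polr1a encodes the largest subunit of the enzyme. Its level ran from 7.16 through a median of 7.28 to 7.58 in control and from 6.55 through 7.29 to 7.64 in PJ34 embryos, a difference of -0.14 ± 0.12 (SE; adjusted p = 0.92). The medians were alike and the lower mean came from MTM13-4 (6.55) and MTM13-2 (6.86). Polr1b, the second largest subunit, ran from 6.44 through 6.77 to 7.71 and from 6.38 through 6.69 to 7.22 (difference -0.12 ± 0.16, adjusted p = 0.94), with B-1 (7.71) as the highest embryo. Without B-1 the difference was 0.02. Polr1e, another subunit of the enzyme, differed by -0.21, and Rrn3, the factor that brings the polymerase to the promoter, by -0.02.

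The box C/D particle, which methylates rRNA, is built from the methyltransferase fibrillarin (Fbl) and the paired scaffold proteins Nop56 and Nop58. Nop56 ran from 10.95 through a median of 11.55 to 12.11 in control and from 10.44 through 10.86 to 11.61 in PJ34 embryos. Its difference was -0.59 ± 0.19 (SE), with 9 of 10 PJ34 embryos under the control mean and an adjusted p of 0.81. The 4 embryos of MTM13 (10.44 to 10.71) and MTM14-2 (10.50) lay below every control embryo, and the embryos of MTM11 lay among the controls.

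The lead row of Fbl ran from 11.02 through 11.19 to 11.61 in control and from 10.22 through 10.95 to 11.48 in PJ34 embryos, a difference of -0.32 ± 0.17 (adjusted p = 0.86). Here MTM13-1 (10.22), MTM11-2 (10.45) and MTM14-2 (10.59) were the lowest. The second Fbl row differed by 0.04, so the rows of this gene do not show the same direction. Nop58 ran from 11.39 through 11.50 to 11.63 and from 11.14 through 11.47 to 11.55 (difference -0.10 ± 0.06, adjusted p = 0.88), and 2 PJ34 embryos, MTM13-1 (11.14) and MTM14-1 (11.22), stood below the rest. Rrp9, a protein of the U3 particle that guides cutting of the precursor, differed by -0.13, and by -0.01 without A-2.

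The H/ACA particle, which turns uridines of rRNA into pseudouridines and also binds telomerase RNA, showed 3 of 4 negative differences and none at an unadjusted p under 0.05. Nhp2 ran from 10.54 through 10.86 to 11.28 in control and from 10.27 through 10.88 to 11.41 in PJ34 embryos (difference 0.01 ± 0.16, adjusted p = 0.996). Gar1 ran from 9.04 through 9.18 to 9.38 and from 8.79 through 9.17 to 9.42 (difference -0.03 ± 0.08, adjusted p = 0.97). For both genes the groups covered nearly the same range, and the sign of the difference turned when single embryos were left out. Nop10, a small core protein, differed by -0.18, with MTM14-1 (9.93) far under the other embryos and a difference of -0.05 without it, and Nolc1, which chaperones the particles, by -0.11.

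The small subunit processome is the large early complex that folds and cuts the precursor around the U3 RNA. It held 14 members, 10 with a negative difference (71.4%, beside 56.4% of all rows). Of these, 4 were lower at an unadjusted p under 0.05 (28.6% of the 14, background 3.93%). Utp20, a long scaffold protein of the complex, ran from 7.25 through a median of 8.35 to 8.52 in control and from 6.78 through 7.26 to 7.54 in PJ34 embryos. The difference was -0.78 ± 0.21 (SE), a 1.72-fold lower mean intensity, with 10 of 10 PJ34 embryos under the control mean of 7.97 ± 0.59 (SD, n = 7) and an adjusted p of 0.80, the lowest of all members. Control embryos fell apart into 4 between 8.35 and 8.52 (A-2, B-2, D-1 and D-2) and 3 between 7.25 and 7.53 (B-1, B-3 and D-3), and the latter lay inside the range of the PJ34 embryos.

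Heatr1, the animal counterpart of yeast Utp10 and a factor also tied to transcription of the precursor, ran from 9.95 through 10.34 to 10.76 in control and from 8.88 through 9.66 to 10.47 in PJ34 embryos. The difference was -0.68 ± 0.20 (SE), a 1.61-fold lower mean, with 9 of 10 PJ34 embryos under the control mean and an adjusted p of 0.81. All 4 embryos of MTM11 (8.88 to 9.67) and 3 of 4 of MTM13 (9.19 to 9.71) lay below every control embryo, while MTM14-1 (10.47) and MTM14-2 (10.18) lay among the controls.

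Pwp2, a propeller protein of the processome, differed by -0.22, and Wdr43, another of its propeller proteins, by -0.14. Utp15 (-0.18) and Wdr75 (-0.10), partners of Wdr43 in the same subcomplex, and Ddx21 (-0.19) and Ddx10 (-0.17), both RNA helicases, had intervals that included 0, as had Imp4 (-0.09) and Nop14 (-0.07). On the other side stood Utp18 (0.27), Noc4l (0.11), Imp3 (0.09) and Utp3 (0.04); Imp3 and Imp4 bind the U3 RNA together. The value of Utp18 rested on 1 control embryo: D-3 was at 8.21 where the other 6 were at 9.52 or more, and without it the difference was 0.00. That of Ddx10 turned to 0.02 without MTM13-1.

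Late small subunit maturation and export held 6 members, all with a negative difference. Ltv1, which leaves the pre-small subunit late in its maturation, ran from 9.94 through 10.34 to 10.62 in control and from 9.52 through 9.90 to 10.31 in PJ34 embryos. Its difference was -0.36 ± 0.12 (SE), a 1.29-fold lower mean, with 9 of 10 PJ34 embryos under the control mean and an adjusted p of 0.81. Only D-3 (9.94) among the controls lay below 10.10, and 6 PJ34 embryos lay below D-3. The other 5 were Pno1 (-0.21), an RNA-binding partner of Nob1, Tsr1 (-0.15), a GTPase-like factor, Nob1 (-0.11), the nuclease that makes the final end of the small rRNA, Rrp12 (-0.10), an export factor, and Bysl (-0.03), the counterpart of yeast Enp1, none at an unadjusted p under 0.05.

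In large subunit assembly, 8 of 13 rows had a positive and 5 a negative difference (38.5% negative, beside 56.4% of all rows). At an unadjusted p under 0.05, 1 row was lower (7.69%, background 3.93%). This was Noc3l, an assembly factor of early pre-large subunits, which ran from 7.49 through a median of 7.83 to 8.85 in control and from 6.36 through 6.97 to 8.48 in PJ34 embryos. The difference was -0.86 ± 0.26 (SE), a 1.82-fold lower mean and the largest of all members, with 9 of 10 PJ34 embryos under the control mean and an adjusted p of 0.81. Those 9 (6.36 to 7.44) also lay below every control embryo, the lowest of which was B-1 (7.49), whereas MTM14-1 (8.48) was above 6 of the 7 controls.

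The 3 genes of smallest p on the higher side all belonged to this role group. Wdr74, a partner of an ATPase that remodels pre-large subunits, ran from 9.07 through 9.88 to 10.60 in control and from 9.84 through 10.16 to 10.70 in PJ34 embryos (difference 0.31 ± 0.20, adjusted p = 0.88). The highest embryos of both groups were alike, and the control group reached lower, to D-2 (9.07) and B-2 (9.42). Ebna1bp2, the counterpart of yeast Ebp2, ran from 8.88 through 9.44 to 10.20 and from 9.35 through 9.70 to 10.34 (difference 0.23 ± 0.18, adjusted p = 0.91). Ddx18, an RNA helicase, ran from 8.68 through 9.61 to 10.19 and from 8.95 through 9.76 to 10.57 in its lead row (difference 0.25 ± 0.24, adjusted p = 0.92), and its second row differed by 0.25 as well. For all 3 the lowest embryo was a control embryo of sire D, and single embryos of that sire moved the value: without D-2 it was 0.18 for Wdr74 and 0.13 for Ebna1bp2, and without D-1 it was 0.10 for Ddx18.

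Among the remaining factors of the large subunit, Nop16 had the largest positive difference of all members (0.40) and the widest spread (SD 1.04 in control and 1.01 in PJ34 embryos), and the difference was 0.11 without D-3. The PeBoW complex, made of Pes1, Bop1 and Wdr12, gave 0.09 for Pes1, -0.18 for Bop1, and 0.00 and 0.35 for the lead and second row of Wdr12. Rrs1, which helps to bring in the 5S particle, differed by -0.16, the methyltransferase Nop2 by -0.12 and Rrp1b by -0.14.

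The abundant nucleolar proteins gave 3 negative differences of 4 (75%, beside 56.4% of all rows), and 2 at an unadjusted p under 0.05 (50%, background 3.93%). Gnl3 (nucleostemin), a nucleolar GTPase, ran from 11.06 through 11.37 to 11.60 in control and from 10.74 through 11.17 to 11.25 in PJ34 embryos, a difference of -0.25 with 10 of 10 PJ34 embryos under the control mean (adjusted p = 0.81). Mybbp1a, a nucleolar Myb-binding protein, differed by -0.70 (9 of 10 embryos, adjusted p = 0.83). The best-known proteins of this kind, Ncl and Npm1, had small differences. Ncl (nucleolin) ran from 11.87 through 11.95 to 12.26 and from 11.85 through 11.95 to 12.01 (difference -0.07 ± 0.05, adjusted p = 0.90), with B-2 (12.26) alone above the rest. Npm1 (nucleophosmin) ran from 12.01 through 12.23 to 12.58 and from 12.05 through 12.25 to 12.39 (difference 0.02 ± 0.07, adjusted p = 0.98). Npm1 has processed copies elsewhere in the genome, and how its probes divide among them was not examined.

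**Figure D3:**
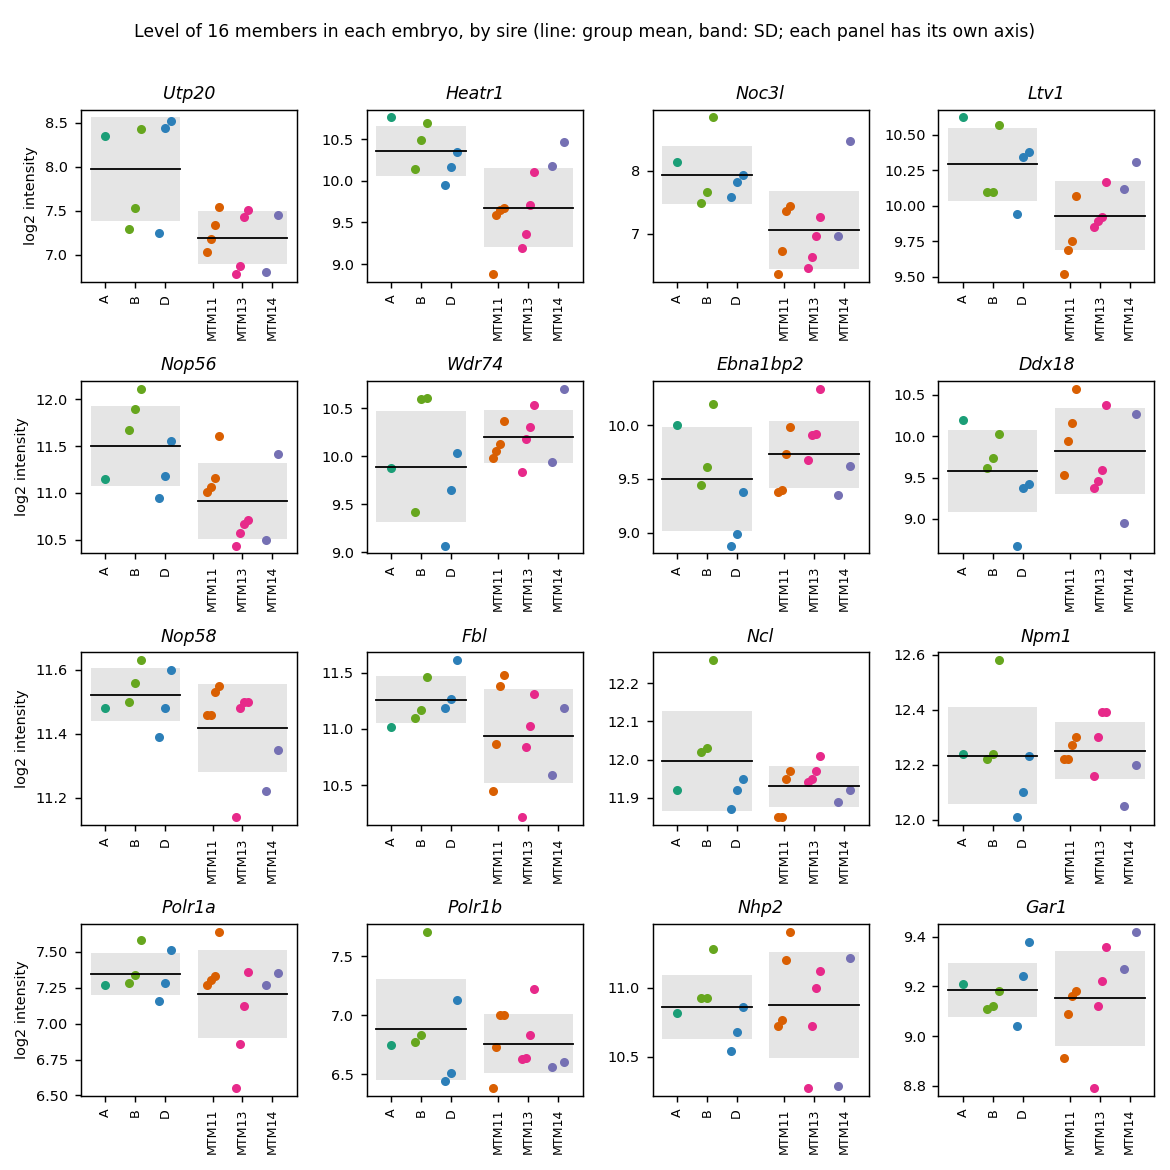
Log2 intensity of the lead row of 16 members in each embryo, grouped by sire (points, 3 control sires left and 3 PJ34 sires right), with the mean (line) and SD (band) of each group; each panel has its own axis. In the upper row and for Nop56 the PJ34 mean lies below the control mean with overlapping points, and in the panels of Ncl, Npm1, Nhp2 and Gar1 the groups cover much the same range.

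The rest of the pathway was read from a list of 106 other nucleolar genes, of which 100 had a row, 117 rows in all. In limma, 0 of the 117 passed at an adjusted p under 0.1, and at an unadjusted p under 0.05, 9 (7.69%, background 3.93%) were lower and 0 higher (background 1.96%); the plain analysis of variance gave 0 adjusted calls, with 8 lower and 0 higher. Negative differences made up 72.6%, beside 56.4% of all rows, and the median was -0.09, beside -0.02. Taf1d alone held 9 of the 117 rows, 4 of them with identical values; with 1 lead row for each of the 100 genes, 71% were negative, the median was -0.09, and 8 were lower and 0 higher at an unadjusted p under 0.05. The 4 with the smallest p, named for that reason, were Polr1c, a subunit shared by polymerases I and III (-0.73), the methyltransferase Ftsj3 (-0.85), the processome GTPase Bms1 (-0.50) and the rRNA acetyltransferase Nat10 (-0.46), each with an adjusted p of 0.81 to 0.83. Polr1c and Ftsj3 were under the control mean in 10 of 10 PJ34 embryos, and Bms1 and Nat10 in 9.

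Averaged over the 47 lead rows, the level of an embryo ran from 9.43 through 9.69 to 9.80 in control and from 9.40 through 9.48 to 9.67 in PJ34 embryos. The mean difference was -0.13, beside a control SD of 0.12 and a shift of -0.02 in the mean of all rows; it is given as a description. Shifts of about the same size were seen in the other nucleolar genes (-0.15), the oocyte-derived markers (-0.13) and the genome activation markers (-0.13). Unlike the members' mean, these list means take all rows of a gene. Taf1d, with 9 of the 117 other nucleolar rows, thus weighs more than other genes in the first. The size was thus shared with these lists outside the members. The dimmer lists shifted less: cumulus cell genes by 0.01, oviduct and blood genes by 0.05 and sperm genes by -0.04. Whether these shifts share a source was not tested. Relative to the control mean, A-2 stood at 0.15, the embryos of sire B at 0.05 to 0.08 and those of sire D at -0.21 to -0.06. In the PJ34 group the embryos of MTM11 stood at -0.25 to -0.14, those of MTM13 at -0.21 to 0.02 and those of MTM14 at -0.17 and -0.01. Control sires thus differed among themselves by as much as the groups did: without sire D the difference was -0.22 and without sire B it was -0.08.

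**Figure D4:**
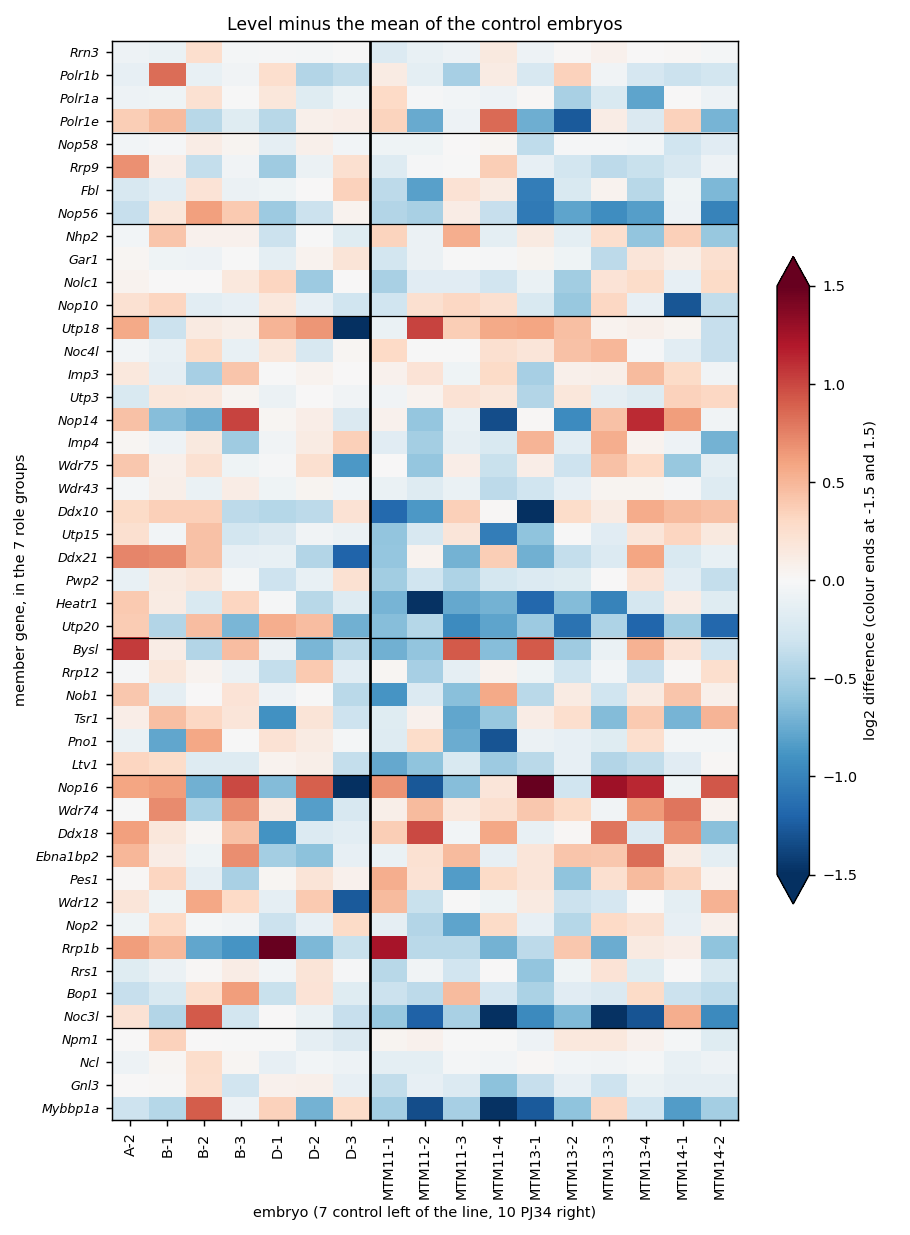
Level of the lead row of each of 47 members (rows, in 7 role groups) in each of 17 embryos (columns) minus the mean of the 7 control embryos, in log2 units (red higher, blue lower). Utp20, Heatr1, Noc3l and Nop56 are blue in 9 or 10 of the 10 PJ34 columns, while single embryos such as D-3 and MTM13-1 hold dark cells in other rows.

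The sires were compared next, since the study followed embryos by father. The 3 contrasts share the 7 control embryos. No member row was called at an adjusted p under 0.1 in limma for MTM11 (background 0.00459%), MTM13 (background 0%) or MTM14 (background 0.0551%). At an unadjusted p under 0.05, MTM11 had 8 lower and 0 higher member rows (16% lower, background 2.53% lower and 2.72% higher), MTM13 6 lower and 1 higher (12% lower, background 2.9% and 2.06%), and MTM14 3 lower and 1 higher (6% lower, background 3% and 2.53%). In each contrast 33 of 50 rows were negative, with medians of -0.13, -0.08 and -0.08, beside -0.0029, -0.024 and -0.043 over all rows.

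Utp20 was lower at an unadjusted p under 0.05 in all 3 contrasts, with differences of -0.70, -0.82 and -0.85 for MTM11, MTM13 and MTM14. Heatr1 gave -0.92, -0.77 and -0.04, Noc3l -0.96, -1.10 and -0.21, Ltv1 -0.54, -0.34 and -0.08, and Nop56 -0.29, -0.90 and -0.54. For Noc3l the MTM14 value averages MTM14-1 (8.48), among the controls, and MTM14-2 (6.97), below all of them.

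Whether the PJ34 sires differed from each other was tested with a moderated F test. None of the 50 rows passed at an adjusted p under 0.1 (background 0.0138%), and 7 did at an unadjusted p under 0.05 (14%, background 4.91%), namely Nop10, Utp3, Noc4l, Heatr1, Imp4, Polr1a and Pwp2. The 3 of smallest p were Nop10 (adjusted p = 0.87; 0.12, -0.15 and -0.83 for MTM11, MTM13 and MTM14), Utp3 (adjusted p = 0.92; 0.10, -0.15 and 0.33) and Noc4l (adjusted p = 0.97; 0.13, 0.28 and -0.25). None of these differences between sires passed the adjusted threshold.

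Each PJ34 embryo was then set against the 7 control embryos on its own, as the study did. The spread came from the controls, and the lone embryo was assumed to vary like one of them. Calls among the member rows were too few for their share, set beside that of all rows below, to describe the members. Over the 10 embryos, 0.581% of all tests of a row in an embryo passed at an adjusted p under 0.1, and the share among the member rows was lower. The member row that passed was Ddx10, an RNA helicase of the processome, in MTM13-1. It was at 8.41 there against 10.34 ± 0.38 (SD, n = 7) in control embryos, a difference of -1.93 (adjusted p = 0.091 in limma; background in this embryo 0.918%). The count of member calls was 0 when dim rows were left out of the fit and 3 when arrays were centred on their medians. MTM11-1 (9.18) and MTM11-2 (9.48) were the next lowest for Ddx10, and the other 7 PJ34 embryos (10.36 to 10.90) lay within or above the range of the controls (9.92 to 10.70). Control embryos set against their other 6 gave 0 member calls, with 0.289% to 0.487% of all rows called.

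Co-variation between embryos was examined for partners of 1 complex, after the mean of each group had been taken off. Of 22 pairs listed, 21 had a row for both genes, and none passed at a Benjamini-Hochberg adjusted p under 0.1 in a permutation test over the 17 embryos (5 had an unadjusted p under 0.05). Nop58 and Fbl gave r = 0.52 (rho = 0.57, permutation p = 0.033 and 0.018, adjusted 0.21 and 0.35), and r = 0.52 remained without the 2 embryos farthest from the median of Nop58. Nop56 and Fbl gave r = 0.52 (rho = 0.51, permutation p = 0.034 and 0.036, adjusted 0.21 and 0.35) and 0.42 without 2 embryos. In both pairs the sign was positive within each group as well. In control and PJ34 embryos it was 0.27 and 0.57 for Nop58 with Fbl, and 0.36 and 0.61 for Nop56 with Fbl. Both pairs rest on the lead row of Fbl, and its second row was not used for them.

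The other 3 pairs were closer to 0 once 2 embryos had been left out. Bop1 and Pes1, partners in the PeBoW complex, gave r = -0.52 (rho = -0.19, permutation p = 0.030 and 0.47, adjusted 0.21 and 0.70), which was 0.03 without 2 embryos. Utp15 and Wdr43 gave 0.50 (rho = 0.37, permutation p = 0.044 and 0.14, adjusted 0.21 and 0.49), which was 0.13 without 2 embryos and -0.57 within the control group. Nhp2 and Gar1 gave -0.48 (rho = -0.34, permutation p = 0.050 and 0.19, adjusted 0.21 and 0.49), and -0.16 without 2 embryos.

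**Figure D5:**
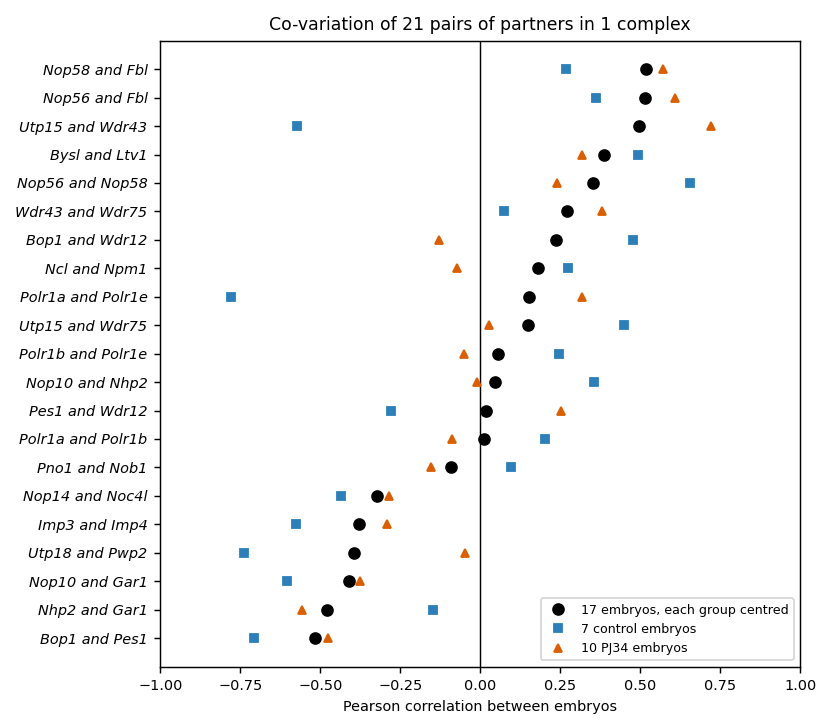
Pearson correlation of the levels of 21 pairs of partners over 17 embryos after centring each group (black circles), and within 7 control (blue squares) and 10 PJ34 embryos (orange triangles). Values lie between -0.52 and 0.52 over all embryos, on both sides of 0.

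Over all 1081 pairs of members the median correlation was 0.047, as a description, beside 0.040 over all pairs of the 21780 rows and 0.032 over the other nucleolar genes. By role, the median was 0.22 in the box C/D particle (6 pairs), 0.19 in the abundant proteins (6 pairs), 0.08 in the processome (91 pairs) and in late small subunit maturation (15 pairs), 0.00 in large subunit assembly (55 pairs) and for polymerase I (6 pairs), and -0.17 in the H/ACA particle (6 pairs). Among the 9 lower genes it was 0.12 over 36 pairs, 25 of them positive, from -0.35 for Heatr1 with Utp20 to 0.49 for Heatr1 with Ltv1. These points share the arrays and their normalization.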

How the data were processed

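RNA of single 2-cell embryos was amplified with a whole-transcriptome kit and each sample was run on 1 Affymetrix array (Mouse Gene 1.0 ST). The authors deposited log2 intensity values made with RMA in Partek (versions not given in the sources used here), which corrects background, forces 1 distribution on all arrays and summarizes probes, so that levels of different probe sets do not rank their transcripts. Groups and sires came from the labels. Genes were named from the platform annotation (21780 rows with 1 symbol, 1605 with several, 5430 with none). Differences were tested with limma 3.58.1 in R 4.3.3 (two-sided, Benjamini-Hochberg over the 21780 rows), calls being made at an adjusted p under 0.1; pairs were tested by permutation with 100000 resamples. Before use the fits were checked on simulated data. The members and gene lists were chosen with earlier results of these data known. Members given by embryo are the 5 lower and 3 higher of smallest p and 9 well-known ones (Nop56 is both); others are given by difference. Alternatives were the sire as a block or unit, array centring, a filter on dim rows, and leaving out embryos or sires. Arrays carry no read depth; precision is set by the number of embryos.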

Additional observations from a re-analysis of the deposited data

Results flagged for a closer look

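Of 96 checks for a single embryo far from the rest of its group (47 members and their mean in 2 groups), 10 stood out by Dixon's criterion, where chance gives about 1 in 20. Among control embryos, D-3 was low for Utp18 (8.21, next 9.52), Wdr12 (7.14, next 8.27) and Wdr75 (9.73, next 10.53), and D-2 for Nolc1 (10.25, next 10.80). B-2 was high for Ncl (12.26, next 12.03) and Rrn3 (12.05, next 11.79), and B-1 for Npm1 (12.58, next 12.24). Among PJ34 embryos, MTM14-1 was high for Noc3l (8.48, next 7.44), MTM11-4 high for Rrp9 (8.66, next 8.28) and low for Gnl3 (10.74, next 10.98).

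For Gar1, all 4 embryos of MTM11 lay under the control mean and both of MTM14 above it (-0.10 and 0.16, a difference of -0.26 between the sires); the difference between this pair of sires was not tested by itself, and Gar1 did not pass the F test over the 3 sires (adjusted p = 1.00 in limma).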

How the results depend on the processing

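The number of member rows passing the adjusted threshold between groups was 0 under all alternatives run. Counts of lower and higher rows given here are at an unadjusted p under 0.05. The 9 lower member rows became 5 with means of sires and 5 without sire B, and 7 to 11 when single embryos were left out. The 0 higher ones became 1 without sire B and 0 to 1 without single embryos. Among the other nucleolar rows, the 9 lower ones were 6 to 14 and the 0 higher ones 0 to 1 without single embryos (14 without MTM11-3), and the higher ones 1 without sire A and 2 without sire B. Member calls in single embryos were 3 with arrays centred on their medians and 0 with dim rows left out. Pairs that passed were 0 to 1 without single embryos, the 1 without MTM14-1. The difference in the members' mean stayed between -0.17 and -0.11 without single embryos. Of 47 genes, 37 kept their sign in all 19 alternatives run for each. The other 10 turned when single embryos were left out, with ranges of -0.14 to 0.15 for Bysl, -0.19 to 0.018 for Polr1b, -0.21 to 0.10 for Wdr12, -0.043 to 0.018 for Rrn3, -0.21 to 0.095 for Nop14, -0.050 to 0.080 for Nhp2, -0.29 to 0.12 for Rrp1b, -0.019 to 0.076 for Npm1, -0.062 to 0.0082 for Gar1 and -0.25 to 0.024 for Ddx10. The causes were not tested. No paired analysis was possible because the groups came from different sires and the labels match no embryos between them. With 7 and 10 embryos of 3 sires each, differences of the size seen here had standard errors of 0.06 to 0.26 for the 9 lower genes.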
